A study of Mus musculus with 6 samples.

Results

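The Krüppel-like factors (KLFs) are zinc finger transcription factors, and 10 of their genes (Klf2, Klf3, Klf4, Klf5, Klf6, Klf7, Klf9, Klf10, Klf13 and Klf15) were followed here in mouse small intestine after ischemia/reperfusion (I/R), among 12327 genes in all. They were taken by name from the RNA-seq table, which listed 12 of the 17 Klf genes of the annotation. The other 2 listed genes, Klf11 and Klf16, are described as relatives. RNA had been profiled in 3 I/R libraries (replicates 6, 7 and 9) and 3 sham libraries (replicates 1, 3 and 5) of C57BL/6 mice aged 8 weeks, with no genetic change named for either group. In the I/R group the superior mesenteric artery, which feeds most of the small bowel, was closed and then reopened. Sham mice had the operation without closure of the artery. Whether every library is an animal of its own is not in the labels. The p-values therefore describe the scatter of these 6 libraries, which may be technical.

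KLFs bind GC-rich letters and CACCC boxes of DNA through C2H2 zinc fingers at the end of the protein, and differ mainly in the part before the fingers, which activates or represses transcription. In the gut epithelium, Klf5 is known as a factor of dividing crypt cells and Klf4 as a factor of differentiated cells of the upper crypt and villus, goblet cells included. Klf2 is best known in endothelium under flow and in resting lymphocytes, Klf9 and Klf15 as genes induced by glucocorticoids, and Klf10 as an early gene of the transforming growth factor beta (TGF-beta) response.

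The shared part of the family is shown by the coding strand of the third finger in 6 members, which lets a reader see how alike the measured RNAs are. All 10 members encode 3 fingers over a stretch of 243 bases, and the third finger takes 63 bases from its first cysteine to its last histidine codon. The 19 bases that are the same in all 10 members are in capitals (annotated transcripts, GRCm38).
Klf2: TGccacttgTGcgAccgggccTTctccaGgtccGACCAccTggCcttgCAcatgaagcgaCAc
Klf4: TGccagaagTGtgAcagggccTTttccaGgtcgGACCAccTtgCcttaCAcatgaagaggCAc
Klf6: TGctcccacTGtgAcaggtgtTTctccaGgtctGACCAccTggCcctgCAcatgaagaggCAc
Klf7: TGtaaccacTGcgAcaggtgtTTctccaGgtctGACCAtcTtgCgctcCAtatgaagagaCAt
Klf9: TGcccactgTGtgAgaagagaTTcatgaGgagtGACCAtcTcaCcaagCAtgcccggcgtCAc
Klf13: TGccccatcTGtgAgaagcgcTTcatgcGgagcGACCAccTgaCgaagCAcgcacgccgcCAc
The pairs Klf6 and Klf7, and Klf9 and Klf13, look alike at a glance, and Klf2 resembles Klf4. Over the 243 bases, identity was 81.1% between Klf6 and Klf7, 78.2% between Klf2 and Klf4 and 72.8% between Klf9 and Klf13, in a range of 57.2% to 81.1% over the 45 pairs of members. The longest run of letters shared by the most abundant transcripts of any pair was 12 to 26 bases with a median of 14, and the 26-base run joined Klf6 and Klf7. None of the genes that overlap a member on the genome was listed in the table, and the libraries had been made to keep the strand.

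The values were FPKM (fragments scaled to the length of the transcript and the size of the library), which allow levels to be compared between genes. They summed to between 315726 and 330814 per library, and the number of reads behind them is unknown, so no counting interval is given. The correlation of log2(FPKM + 1) across genes, which are not independent replicates, was 0.886 to 0.932 between pairs of libraries. All 9 enterocyte markers of a fixed list were listed, with sums of 8175 to 15179 FPKM in I/R and 9829 to 19003 FPKM in sham libraries. Sham replicate 1 and I/R replicate 6 were the libraries with the most RNA of endothelial, fibroblast, T cell, B cell, macrophage and adipocyte markers. In bulk tissue, fewer cells of a type and less RNA per cell cannot be told apart.

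Klf4 and Klf5 were the most abundant members. Together they made up 48.6% to 60.6% of the summed FPKM of the 10 members in each library, and they held the first 2 places in 5 libraries, while in sham replicate 3 Klf3 stood between them. In I/R, the order by mean FPKM was Klf4, Klf5, Klf6, Klf3, Klf13, Klf10, Klf2, Klf7, Klf15 and Klf9. In sham, it was Klf4, Klf5, Klf3, Klf6, Klf10, Klf13, Klf2, Klf15, Klf7 and Klf9. Most neighbours in these orders had overlapping values. The exceptions were Klf5 above Klf6 and Klf2 above Klf7 in I/R, and Klf7 above Klf9 in sham.

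**Figure D1:**
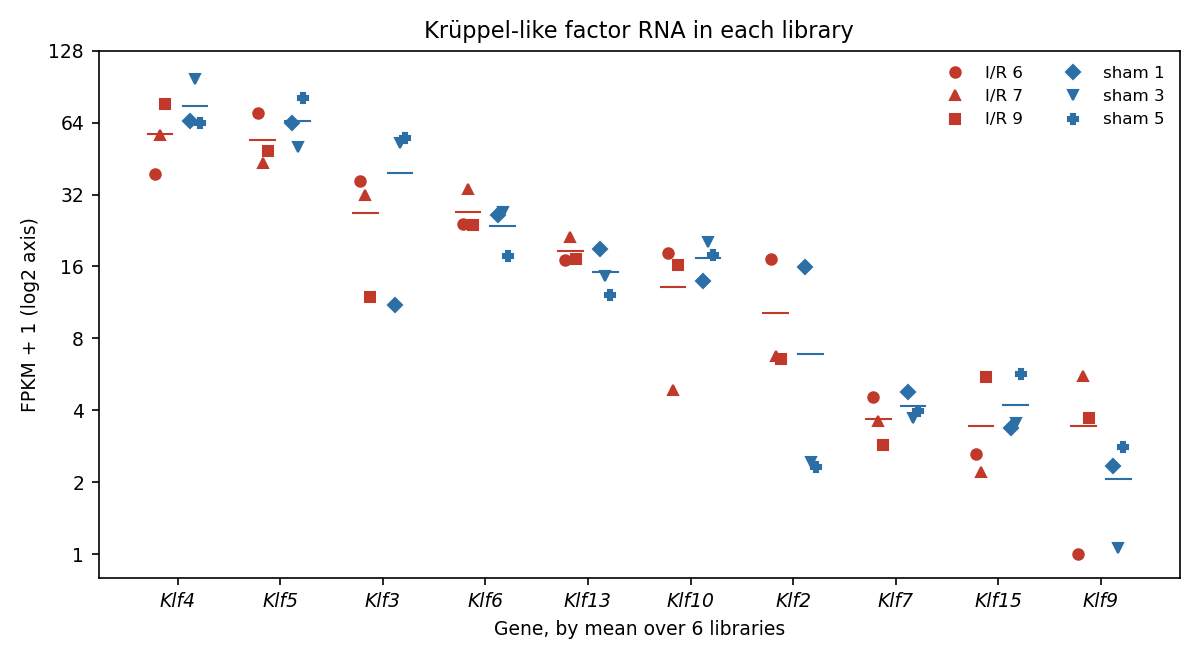
FPKM + 1 on a log2 axis for the 10 members in each library, with I/R libraries in red to the left and sham libraries in blue to the right of each gene, and short lines at the group means. The groups overlap for every member, and the points lie farthest apart for Klf2, Klf3 and Klf9.

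The first comparison asked whether any KLF differed between I/R and sham intestine. No member passed. The 10 members were all tested, 4 had a higher and 6 a lower mean of log2(FPKM + 1) in I/R, and 0 passed a limma adjusted p of 0.05 in either direction. Over the 12006 genes tested, 0.0167% were called higher and 0.0167% lower at this threshold, so a count of 0 among 10 genes differs little from the background. At an unadjusted limma p of 0.05, 0 members were called, where 5.56% of all genes were called higher and 3.38% lower. The I/R values lay wholly above or wholly below the sham values in 0 members, against 10.6% of all genes above and 5.89% below. The lowest limma adjusted p was 0.673 (Klf4), and exact permutation p-values ran from 0.3 to 0.6, where 0.1 is the smallest that 3 against 3 libraries allow.

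The median log2 fold change of the members was -0.24, beside 0.12 over all genes tested. The shift over all genes depended on the scaling of the libraries, since it was 0.0104 after median-ratio scaling, while each member kept its direction. Summed over the 10 members, FPKM came to 221, 199 and 203 in the I/R libraries 6, 7 and 9, and to 215, 264 and 253 in sham replicates 1, 3 and 5. The total was 208 ± 11.3 in I/R and 244 ± 25.5 in sham (SD, n = 3 each, exact permutation p = 0.2). Sham replicate 1 lay within the I/R range, and the other sham libraries lay above it.

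**Figure D2:**
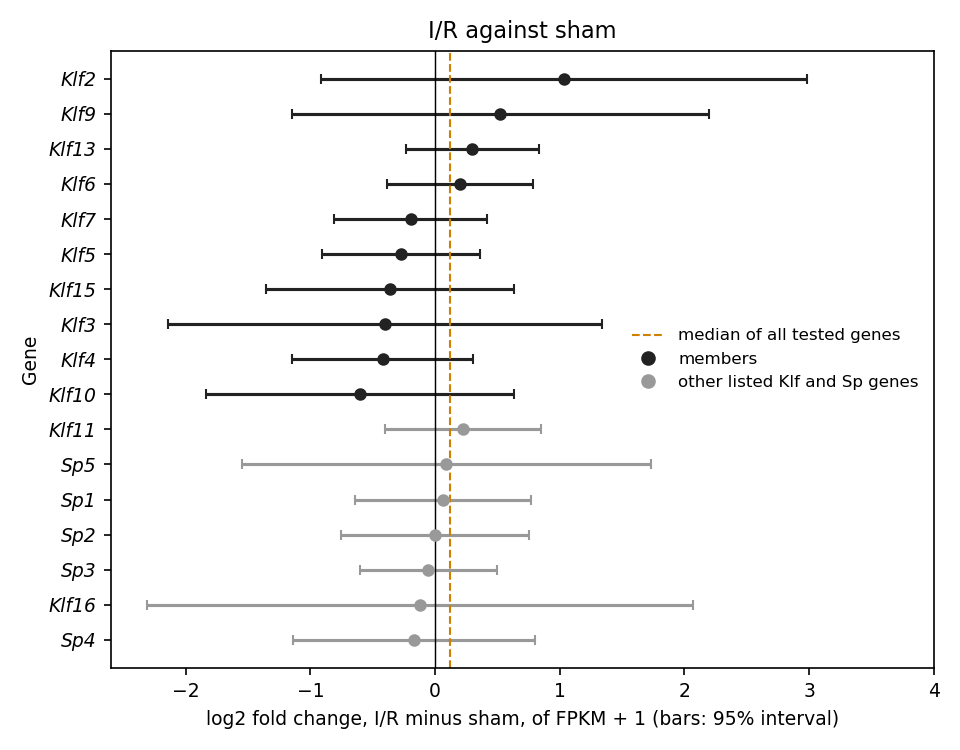
Log2 fold change (I/R minus sham) of FPKM + 1 with its 95% interval, for the members in black and the other listed Klf and Sp genes in grey, with a dashed line at the median of all tested genes. Every interval includes 0, and the interval of Klf2 runs from -0.92 to 2.98.

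The members known from the epithelium were examined first. Klf4 stood at 37.9, 55.6 and 75.5 FPKM in the I/R libraries 6, 7 and 9, against 64.0, 96.7 and 62.6 FPKM in sham replicates 1, 3 and 5. The lowest pair of values came from I/R and the highest value from sham, but I/R replicate 9 exceeded 2 sham libraries. Group means were 56.3 ± 18.8 FPKM in I/R and 74.4 ± 19.3 FPKM in sham (SD, n = 3 each), and the log2 fold change was -0.42 ± 0.30 (SE, 95% interval -1.15 to 0.30, limma adjusted p = 0.673). The exact permutation p was 0.4. Without I/R replicate 6 the difference was -0.17 on the log2 scale, and without I/R replicate 9 it was -0.66.

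Klf5 was at 69.2, 42.3 and 47.6 FPKM in I/R and at 62.5, 49.6 and 80.5 FPKM in sham, in the same order of replicates. I/R replicates 7 and 9 were the lowest libraries, and I/R replicate 6 was above 2 of the sham libraries. Klf5 had a log2 fold change of -0.28 ± 0.26 (SE, 95% interval -0.91 to 0.36, limma adjusted p = 0.729). The ratio of Klf4 to Klf5, a measure chosen after the values were seen, was 0.548, 1.32 and 1.59 in I/R and 1.03, 1.95 and 0.777 in sham (exact permutation p = 0.9). The 2 libraries in which Klf5 exceeded Klf4 were I/R replicate 6 and sham replicate 5, so the ratio did not follow the groups.

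Goblet cell markers averaged lower in I/R, as Klf4 did, but not library by library, and crypt stem cell markers had no common direction. Within I/R the goblet sum was highest in replicate 6 (2944 FPKM), where Klf4 was lowest (37.9 FPKM). Within sham it was lowest in replicate 3 (2167 FPKM), where Klf4 was highest (96.7 FPKM). Among the 14 marker sums, 1, that of enterocytes, had the same highest pair of libraries as Klf4, and 0 had the same lowest pair. The summed FPKM of 7 of 7 goblet cell markers spanned 1558 to 2944 in I/R, against 2167 to 4335 in sham, and that of 4 of 4 crypt stem cell markers spanned 55.5 to 84.6 in I/R, against 17.7 to 130 in sham. The mean was lower in I/R for 7 of 7 goblet cell markers and for 2 of 4 crypt stem cell markers. Muc2, the main secreted mucin, was at 211 ± 101 FPKM in I/R and 427 ± 119 FPKM in sham, and Fcgbp, a mucus protein, at 168 ± 73.4 and 345 ± 80.2 FPKM (SD, n = 3 each, limma adjusted p = 0.533 for both, chosen after their values were seen). No marker in these lists passed the adjusted limma threshold, and no marker of either list is at 0 in any library. Their part in the Klf4 and Klf5 values was not tested. Of 12 cell cycle genes set beside Klf4 and Klf5, 11 averaged higher and 1 lower in I/R, with a median log2 fold change of 0.50 beside 0.12 over all genes. The list mixed genes of division with the cell cycle inhibitors Cdkn1a and Cdkn1b, which averaged higher too (log2 fold changes 0.64 and 0.16). The 1 lower gene was the cyclin Ccnd1 (-0.07). The count of 11 is thus not one of dividing cells alone. None of the 12 passed the adjusted threshold, and 3 passed the unadjusted one on the higher side, where 5.56% of all genes did. That count was 0 to 4 when single libraries were left out (0 without I/R replicate 7, and 1 without I/R replicate 6, I/R replicate 9 or sham replicate 3). The 3 genes were Mcm6, a subunit of the replicative helicase (23.9 ± 0.583 FPKM in I/R and 15.6 ± 3.80 in sham, SD, n = 3 each), the mitotic kinase Cdk1 (14.3 ± 0.416 and 7.92 ± 3.42) and its partner cyclin Ccnb2 (19.1 ± 2.32 and 13.1 ± 2.56). The lean of the list rested partly on sham replicate 3, without which 7 of the 12 averaged higher and 5 lower, with a median of 0.32. After median-ratio scaling 10 averaged higher and 1 passed the unadjusted threshold, and with array weights 10 averaged higher and 0 passed it.

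Klf2 had the largest positive fold change of the members and a wide spread. Klf2 stood at 16.2, 5.78 and 5.55 FPKM in the I/R libraries 6, 7 and 9, against 14.9, 1.44 and 1.32 FPKM in sham replicates 1, 3 and 5. The 3 I/R libraries exceeded sham replicates 3 and 5, while sham replicate 1 was nearly as high as I/R replicate 6. Group means were 9.19 ± 6.11 FPKM in I/R and 5.87 ± 7.78 FPKM in sham (SD, n = 3 each). This gave a log2 fold change of 1.03 ± 0.81 (SE, 95% interval -0.92 to 2.98, limma adjusted p = 0.687), and the exact permutation p was 0.3. Its spread within groups was at percentile 96.6 among all genes tested.

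Of the 6 libraries, sham replicate 1 moved the Klf2 difference most when left out. Without that library the difference was 1.94 on the log2 scale with an unadjusted limma p of 0.00745, which made Klf2 the 1 member called higher at the unadjusted threshold. The adjusted limma p was then 0.237, so the adjusted call was not made. The same removal raised the share of all genes called higher at the unadjusted threshold to 10.7%.

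The libraries high in Klf2 were also those high in markers of the cells in which it is best known, and of several other cell types. Of 8 endothelial markers 7 were listed (all but Tek), and their sum was 24.2, 13.4 and 10.3 FPKM in I/R, against 24.4, 6.51 and 3.52 FPKM in sham. Tie1, a receptor of endothelial cells, was listed at 0 in I/R replicate 7. Pecam1, an endothelial adhesion molecule, was at 12.01, 5.82 and 3.83 FPKM in I/R and 11.5, 1.75 and 1.29 FPKM in sham. Klf2 and Pecam1 thus put the libraries of each group in the same order, as Cdh5, Esam and Vwf did. The other listed markers, Kdr, Emcn and Tie1, ordered the I/R libraries otherwise. Log2 fold changes were 0.81 (Pecam1), 0.67 (Esam) and 0.54 (Cdh5), but 0.04 (Kdr), 0.04 (Tie1), 0.01 (Vwf) and -0.01 (Emcn). All 4 B cell markers were listed, with sums of 168, 141 and 72.2 FPKM in I/R and 189, 2.96 and 2.85 FPKM in sham, and Ms4a1 was listed at 0 in sham replicate 5. Of 7 T cell markers, 7 were listed, and their sum ranged from 33.2 to 56.2 FPKM in I/R and from 30.9 to 77.7 FPKM in sham. Among the sums of 14 marker lists, 6 had the same highest pair of libraries as Klf2. These were the endothelial, fibroblast, T cell, B cell, macrophage and adipocyte sums. The same lowest pair was found for 5, the endothelial, fibroblast, B cell, macrophage and neutrophil sums, but not for T cells. The pattern was thus not particular to endothelium and lymphocytes.

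**Figure D3:**
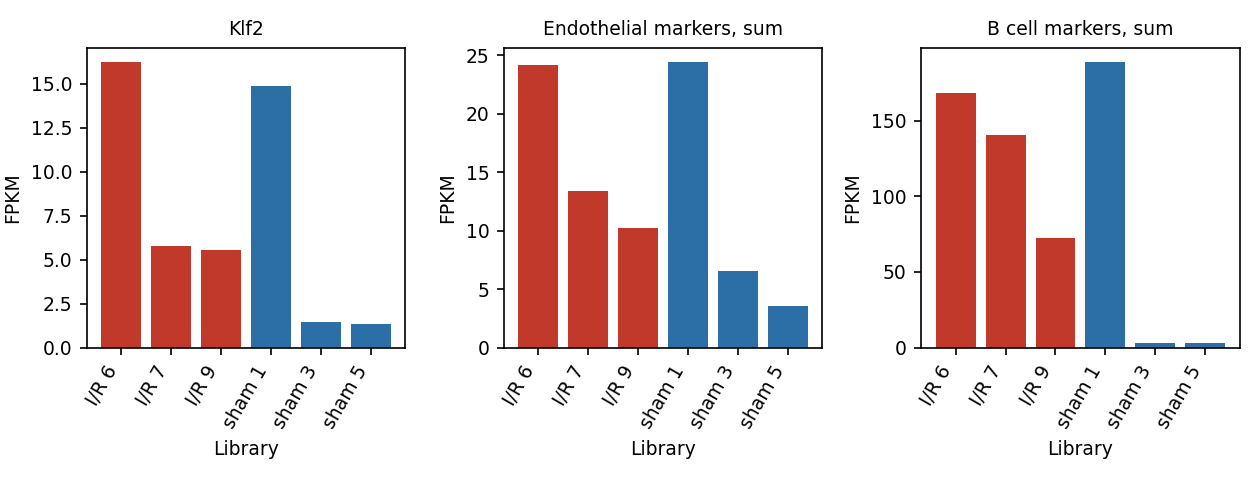
FPKM of Klf2 (left), summed FPKM of the 7 listed endothelial markers (middle) and of the 4 B cell markers (right) in each library, with I/R in red and sham in blue. I/R replicate 6 and sham replicate 1 carry the tallest pair of bars in each panel, and sham replicates 3 and 5 the shortest.

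Divided by the endothelial sum, a ratio chosen after the values were seen, Klf2 came to 0.671, 0.433 and 0.541 in I/R and 0.608, 0.220 and 0.375 in sham (exact permutation p = 0.3). The ratio spanned 3.05-fold between libraries, whereas the endothelial sum itself spanned 6.94-fold. How much of the Klf2 difference follows the content of these cells was not tested.

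Some genes that Klf2 is known to act on, or that act in the same cells, were high in the same libraries. S1pr1, the receptor by which lymphocytes leave lymphoid tissue and a known target of Klf2, was at 10.7, 4.84 and 3.27 FPKM in I/R and 11.4, 0.715 and 0.273 FPKM in sham. Of 6 lymphocyte quiescence and traffic genes, S1pr1 included, 5 averaged higher and 1 lower in I/R, with a median log2 fold change of 1.10 that ran from 0.62 without sham replicate 5 to 1.77 without sham replicate 1. Foxo1, a factor of resting lymphocytes, passed the unadjusted limma threshold (12.7 ± 0.367 FPKM in I/R and 6.32 ± 3.87 FPKM in sham, SD, n = 3 each), and 0 genes passed the adjusted one. Without sham replicate 1, 4 of the 6 passed the unadjusted threshold on the higher side, where 10.7% of all genes did. Foxo1 no longer passed without any single I/R library, sham replicate 3 or sham replicate 5, where the count was 0. Of 8 endothelial genes set beside Klf2 and Klf4, 5 were listed and 4 tested. All 4 (Vcam1, Icam1, S1pr1 and Thbd) averaged higher in I/R, with a median log2 fold change of 1.07, and 0 passed in the limma fit, unadjusted or adjusted. Thbd was listed at 0 in I/R replicate 7. The list was not divided by whether Klf2 raises or lowers a gene. Its count and median therefore do not show the direction of any Klf2 action, which was not tested. Without sham replicate 1, 3 of the 4 tested genes passed the unadjusted threshold on the higher side, where 10.7% of all genes did. Without I/R replicate 6, 1 had a lower mean. The median of the list ran from 0.54 without sham replicate 5 to 1.92 without sham replicate 1.

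The promoter of Klf2 is printed because the family binds CACCC boxes, and the letters show how it is built next to that of Klf3, a member that varied as widely. The window holds 250 bases before and 50 after the start of the gene (RefSeq, GRCm38.p6, chr8:72318812-72319111, plus strand), with CACCC on either strand in capitals.
Klf2 promoter: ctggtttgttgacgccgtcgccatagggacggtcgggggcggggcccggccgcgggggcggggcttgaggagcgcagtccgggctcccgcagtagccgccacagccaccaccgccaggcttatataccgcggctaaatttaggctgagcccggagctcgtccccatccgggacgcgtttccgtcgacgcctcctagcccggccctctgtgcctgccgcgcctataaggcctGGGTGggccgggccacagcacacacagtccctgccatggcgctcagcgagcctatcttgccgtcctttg

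Klf3, a repressor that works through the co-repressor CtBP and is widely expressed, varied in another way. Klf3 stood at 35.6, 30.8 and 10.9 FPKM in the I/R libraries 6, 7 and 9, against 10.1, 51.6 and 54.0 FPKM in sham replicates 1, 3 and 5. Sham replicate 1 was the lowest library and I/R replicate 9 the next, so each group held 1 low library. Sham replicates 3 and 5, where Klf2 was lowest, were the highest for Klf3. The log2 fold change was -0.40 ± 0.73 (SE, 95% interval -2.14 to 1.34, limma adjusted p = 0.862), the exact permutation p was 0.6, and the spread within groups was at percentile 95.3. The sign turned to 0.10 without I/R replicate 9, and the difference became -1.16 without sham replicate 1. None of the 14 marker sums had the same highest or lowest pair of libraries as Klf3 (0 of 14 for each).

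The Klf3 promoter (same source and window, chr5:64803271-64803570, plus strand) had 5 CACCC boxes, against 1 for Klf2. This was the most among the 8 members whose promoters were at hand.
Klf3 promoter: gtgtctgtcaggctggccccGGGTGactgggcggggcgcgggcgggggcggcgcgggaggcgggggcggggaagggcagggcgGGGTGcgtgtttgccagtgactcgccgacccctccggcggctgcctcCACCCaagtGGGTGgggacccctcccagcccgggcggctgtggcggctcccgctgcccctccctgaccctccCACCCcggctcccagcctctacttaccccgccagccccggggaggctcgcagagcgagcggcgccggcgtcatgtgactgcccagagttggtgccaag
Its GC content was 76.7% and that of the Klf2 promoter 69.3%, where the median promoter of the table had 52.7%. Promoters of 8 members were in the table (all but Klf5 and Klf10). CACCC, on either strand, stood in 6 of these 8 and in 57.5% of 32851 promoters. The GC box GGGCGG stood in 7 of 8, against 35.7% of all promoters, on either strand. These 8 promoters had 58.3% (Klf7) to 76.7% (Klf3) GC, all above the median promoter, and the part of GC content in this share was not tested. Klf7 had 3 CACCC boxes, Klf9, Klf13 and Klf15 had 1 each, and Klf4 and Klf6 had 0. A match is a stretch of letters, not a measured binding site.

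**Figure D4:**
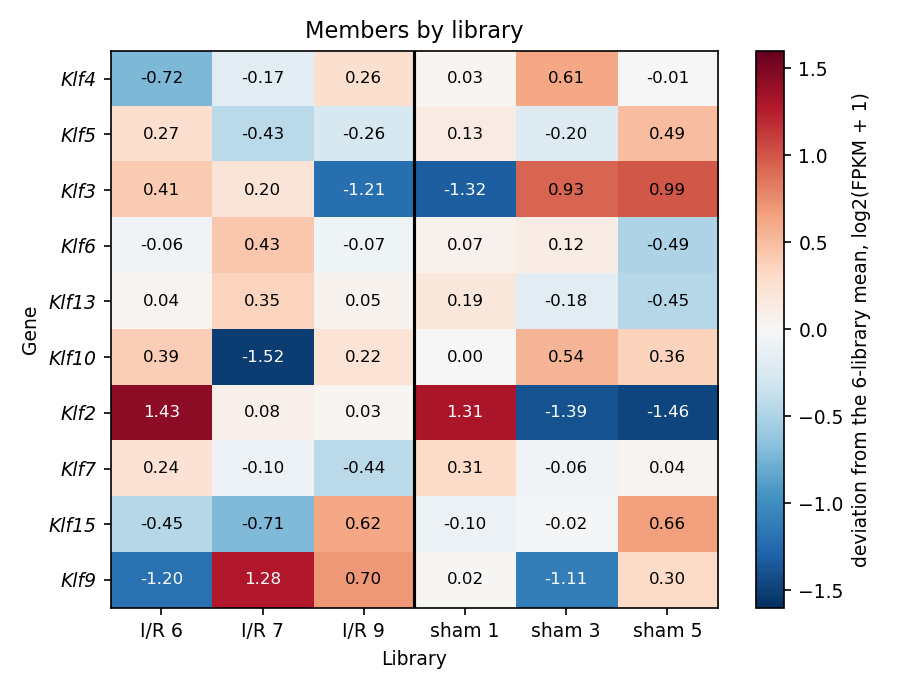
Deviation of each member in each library from its mean over the 6 libraries, on the log2(FPKM + 1) scale, with I/R libraries left of the line and sham libraries right of it. Klf2 and Klf3 have opposite colours in sham replicates 1, 3 and 5, and no row has one colour on each side of the line.

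Klf6 and Klf7, the pair with the most similar fingers, were measured at different levels and with little spread. Klf6, an early gene of tissue injury in several organs, was at 23.0, 32.6 and 22.8 FPKM in I/R and 25.2, 26.1 and 16.8 FPKM in sham. The highest library was I/R replicate 7 and the lowest sham replicate 5, with the others between. For Klf6 the log2 fold change was 0.20 ± 0.24 (SE, limma adjusted p = 0.783). Klf7, known for its role in neurons, was at 3.54, 2.61 and 1.85 FPKM in I/R and 3.78, 2.71 and 2.96 FPKM in sham. Its I/R and sham values interleaved, with the highest values in I/R replicate 6 and sham replicate 1 as for Klf2, and the log2 fold change was -0.20 ± 0.26 (SE, limma adjusted p = 0.799). Of 13 tested immediate-early genes set beside Klf6, 10 averaged higher and 3 lower in I/R (median log2 fold change 0.20), and none passed the adjusted threshold. At the unadjusted threshold 2 passed on the higher side, where 5.56% of all genes did. These were Ier3 (11.2 ± 4.14 FPKM in I/R and 5.45 ± 1.45 in sham, SD, n = 3 each), a stress response gene, and the MAP kinase phosphatase Dusp1 (7.70 ± 2.46 and 4.46 ± 0.584). The count on the higher side was 0 without I/R replicate 6, sham replicate 3 or sham replicate 5, and 4 without I/R replicate 9. The median of the list was 0.014 without sham replicate 5, with 7 genes higher and 6 lower, and 0.38 to 0.69 without any of the other 5 libraries.

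Klf9, Klf10 and Klf13 belong to the members that repress through the co-repressor Sin3. Klf9 was listed at 0 in I/R replicate 6 and stood at 4.56 and 2.71 FPKM in the I/R libraries 7 and 9, against 1.33, 0.0619 and 1.82 FPKM in sham replicates 1, 3 and 5. The highest pair of values came from I/R, and so did the lowest value. An exact 0 in such a table can be a failed estimate, and no read counts were at hand to check it. The log2 fold change was 0.52 ± 0.70 (SE, 95% interval -1.15 to 2.20, limma adjusted p = 0.803). Without I/R replicate 6 it was 1.25, with an unadjusted limma p of 0.0487 and an adjusted limma p of 0.806. This made Klf9 the 1 member called higher at the unadjusted threshold, where 3.24% of all genes were called. Without I/R replicate 7 it was 0.013.

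Klf13, which acts in T cells and heart among other tissues, was at 16.1, 20.2 and 16.2 FPKM in I/R and 17.9, 13.6 and 11.1 FPKM in sham. The 3 I/R libraries exceeded sham replicates 3 and 5, and sham replicate 1 lay within the I/R range. Group means were 17.5 ± 2.32 FPKM in I/R and 14.2 ± 3.40 FPKM in sham (SD, n = 3 each, exact permutation p = 0.3), and the log2 fold change was 0.30 ± 0.22 (SE, 95% interval -0.23 to 0.83, limma adjusted p = 0.677). The placing of sham replicate 1 was thus the same for Klf13 and Klf2. The lowest pair of libraries for Klf13 was also the lowest for 5 marker sums (endothelial, fibroblast, B cell, macrophage and neutrophil), whose part in this value was not tested.

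Klf15, a regulator of amino acid and glucose metabolism, was low in every library. It was at 1.62, 1.20 and 4.52 FPKM in I/R and 2.36, 2.54 and 4.68 FPKM in sham. I/R replicates 6 and 7 were the lowest libraries, and I/R replicate 9 was close to the highest, sham replicate 5. The log2 fold change was -0.36 ± 0.42 (SE, limma adjusted p = 0.773), and it was -0.76 without I/R replicate 9. It was -0.12 when sham replicate 5 was left out and -0.098 when I/R replicate 7 was. Of 8 metabolic genes set beside Klf15, 5 averaged higher and 3 lower in I/R, with a median of 0.16, and 0 passed in the limma fit, unadjusted or adjusted. This lean did not hold when libraries were left out or rescaled. The median was -0.010 without I/R replicate 6, -0.057 without sham replicate 3, -0.017 without I/R replicate 7 and -0.0038 after quantile normalization, with 4 genes higher and 4 lower each time. It was 0.34 without I/R replicate 9 and 0.30 without sham replicate 1, with 7 higher and 1 lower. On the higher side 1 gene passed the unadjusted threshold without I/R replicate 7, I/R replicate 9, sham replicate 1 or sham replicate 3, and 1 on the lower side without I/R replicate 9.

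Most other genes that glucocorticoids induce had a higher mean in I/R. Of 10 such genes, all tested, 9 averaged higher and 1 lower, 8 passed the unadjusted limma threshold on the higher side (where 5.56% of all genes did) and 0 the adjusted one. Their median log2 fold change was 1.17, beside 0.12 over all genes. The median ran from 0.97 to 1.34 when single libraries were left out. The unadjusted count was 6 after median-ratio scaling and 6 to 9 across the same removals. Mt2, a metallothionein, was at 483, 399.9 and 265 FPKM in I/R and 92.8, 98.6 and 164 FPKM in sham (log2 fold change 1.69 ± 0.32, SE, limma adjusted p = 0.297). Sgk1, a kinase that regulates sodium transport, was at 187 ± 52.9 FPKM in I/R and 73.6 ± 23.9 FPKM in sham (SD, n = 3 each, limma adjusted p = 0.430). Cebpd, a transcription factor of stress and adipocyte development, was at 24.3 ± 4.63 FPKM in I/R and 4.23 ± 3.35 FPKM in sham (SD, n = 3 each, limma adjusted p = 0.465), and Nfkbia, the inhibitor of NF-κB, was at 161 ± 31.4 and 92.5 ± 19.0 FPKM. The I/R values lay wholly above the sham values in these 4 genes, which had been picked by smallest p, and in 6 of the 10 genes of the list, against 10.6% of all genes. Klf9 and Klf15, known targets of the same hormone, had overlapping groups and opposite signs. Several genes of the list also answer to other signals. The list was chosen with earlier results of these data known, so its counts beside the shares of all genes are description only. A response to the hormone was not tested.

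Of the 5 adipogenic factors set beside Klf4, Klf5, Klf9 and Klf15, 5 averaged higher in I/R, and Cebpd alone passed the unadjusted limma threshold. The median of 1.43 stands on Cebpa, which was listed at 0 in 5 libraries and at 18.4 FPKM in I/R replicate 6. Cebpb was likewise listed at 0 in 5 libraries, so the count of higher means rests partly on single libraries. It was 4 of 5 after quantile normalization and without sham replicate 3, I/R replicate 6 or I/R replicate 7. Leaving out I/R replicate 6 gave a median of 0.57, leaving out I/R replicate 7 one of 0.62, and leaving out I/R replicate 9 one of 2.14.

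Klf10 stood at 17.3, 3.85 and 15.3 FPKM in the I/R libraries 6, 7 and 9, against 12.9, 19.2 and 16.9 FPKM in sham replicates 1, 3 and 5. A single library, I/R replicate 7, was low, and the other 5 lay between 12.9 and 19.2 FPKM. The log2 fold change was -0.60 ± 0.52 (SE, 95% interval -1.84 to 0.63, limma adjusted p = 0.701, exact permutation p = 0.6), and it was 0.0073 without I/R replicate 7. Of 10 tested genes of the early TGF-beta response, 4 averaged higher and 6 lower in I/R (median log2 fold change -0.23). In each direction 1 passed the unadjusted threshold, where 5.56% of all genes were called higher and 3.38% lower. On the lower side this was the inhibitory Smad6, at 1.55 ± 0.740 FPKM in I/R and 3.42 ± 0.398 FPKM in sham (SD, n = 3 each, limma adjusted p = 0.522). The genes of the list went in both directions, while its median was negative under every alternative. Klf10 was negative under every alternative except without I/R replicate 7. Without sham replicate 1, 3 genes of the list passed on the higher side, where 10.7% of all genes did. On the lower side 0 passed without I/R replicate 6 or sham replicate 3. The median of the list ran from -0.36 without I/R replicate 6 to -0.053 without I/R replicate 7.

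The relatives of the family were examined to see whether the members stood apart. Klf11, a Sin3-binding relative of Klf10, was at 1.20 ± 0.321 FPKM in I/R and 0.908 ± 0.457 FPKM in sham (SD, n = 3 each, limma adjusted p = 0.776). Klf16 stood at 3.76 FPKM in I/R replicate 7 and 5.13 FPKM in sham replicate 5 and was listed at 0 in the other 4 libraries. The Sp factors, which carry fingers of the same kind, were listed for 5 of 9 genes (Sp1 to Sp5). The most abundant was Sp3, at 10.9 ± 2.21 FPKM in I/R and 11.3 ± 1.96 FPKM in sham (SD, n = 3 each). Their log2 fold changes ran from -0.17 (Sp4) to 0.09 (Sp5), and 0 passed in the limma fit, unadjusted or adjusted. Of 11 partner proteins that KLFs bind or that degrade them, 7 had a higher and 4 a lower mean (median 0.07), and 0 passed, unadjusted or adjusted. After median-ratio scaling 5 were higher and 6 lower (median -0.060) and 1 passed the unadjusted threshold on the lower side, as 1 did after quantile normalization. Without sham replicate 1 or sham replicate 5, 1 passed it on the higher side, and the median ran from 0.051 without sham replicate 3 to 0.19 without I/R replicate 9. The nearest to the threshold were the acetyltransferase Kat2b (8.50 ± 0.734 FPKM in I/R and 11.1 ± 0.751 in sham, SD, n = 3 each) and the deacetylase Hdac2 (18.0 ± 0.620 and 13.6 ± 3.51), with limma adjusted p of 0.601 and 0.624.

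By transcript, no member passed the adjusted threshold either. The table listed 13 transcripts of the members, 3 for Klf3, 2 for Klf4 and 1 for each of the others. The main Klf3 transcript (5221 bases, 6 exons) was at 34.4, 29.5 and 10.6 FPKM in I/R and 10.01, 50.4 and 51.3 FPKM in sham, so it carried the spread of the gene. A shorter Klf3 transcript of 809 bases was at 1.19, 1.31 and 0.235 FPKM in I/R and 0.0677, 1.12 and 0.847 FPKM in sham, low in the same pair of libraries. Its log2 fold change was 0.19 ± 0.40 (SE), opposite in sign to the -0.41 ± 0.71 of the main transcript. Klf4 rested on its 3029-base transcript, with 37.9 to 74.2 FPKM in I/R and 61.5 to 95.3 FPKM in sham. The lowest limma adjusted p over the tested transcripts of the members was 0.758.

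On the mm10 build, Klf2 lies on chromosome 8 (72319033 to 72321656, plus strand), Klf3 on chromosome 5 (64803388 to 64832901, plus), Klf4 on chromosome 4 (55527143 to 55532466, minus) and Klf5 on chromosome 14 (99298691 to 99315036, plus). Klf6 lies on chromosome 13 (5861482 to 5870394, plus), Klf7 on chromosome 1 (64029447 to 64122282, minus) and Klf9 on chromosome 19 (23141226 to 23168134, plus). Klf10 lies on chromosome 15 (38291463 to 38300706, minus), Klf13 on chromosome 7 (63886351 to 63938915, minus) and Klf15 on chromosome 6 (90462576 to 90475238, plus). The members are thus spread over 10 chromosomes, and none shares a locus with another.

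Leaving out single libraries showed which values rested on one of them. The log2 fold change ran from 0.56 to 1.94 for Klf2, from -1.16 to 0.10 for Klf3, from 0.013 to 1.25 for Klf9 and from -0.95 to 0.0073 for Klf10. These were the members with the widest ranges. The other members kept their sign, but several came close to 0 with 1 library left out. Klf6 was at 0.0095 without sham replicate 5, in a range up to 0.31, and Klf7 at -0.028 without I/R replicate 9, in a range down to -0.36. Klf5 ran from -0.48 to -0.10, Klf15 from -0.76 to -0.098, Klf4 from -0.66 to -0.17 and Klf13 from 0.15 to 0.47.

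**Figure D5:**
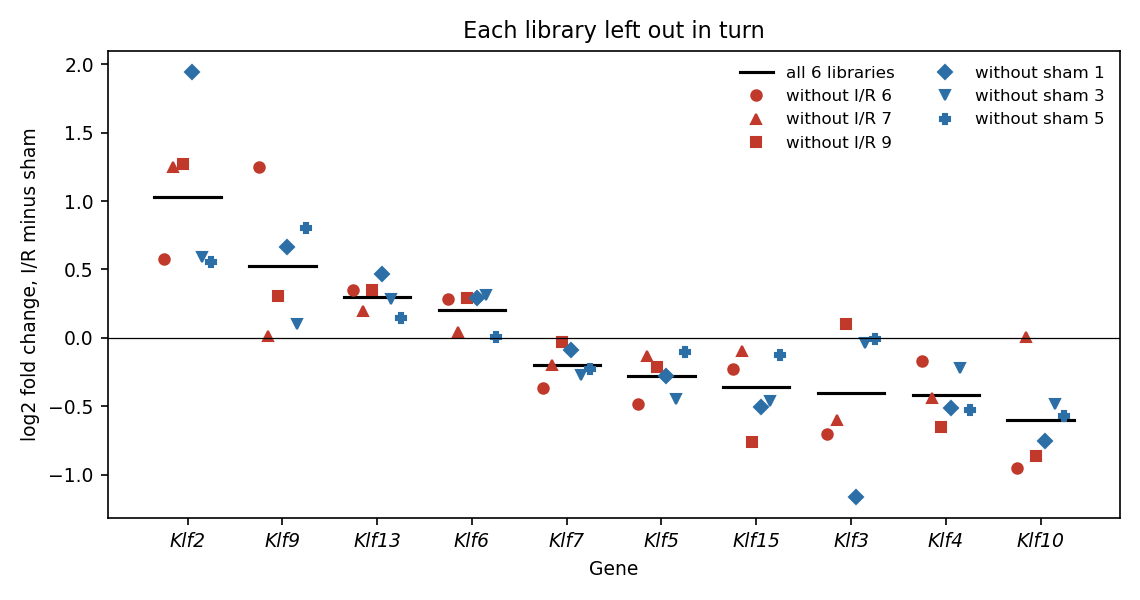
Log2 fold change (I/R minus sham, log2 of FPKM + 1) of each member with all 6 libraries (black line) and with each library left out in turn (symbols, I/R in red and sham in blue). The highest point is Klf2 without sham replicate 1, at 1.94, and the lowest is Klf3 without the same library, at -1.16.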

How the data were processed

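RNA-seq libraries of small intestine, 3 I/R and 3 sham, were compared. The deposited table held FPKM per transcript, as the authors computed them. Cutadapt, HISAT2 2.0.4, StringTie and mm10 are named in the submitters' processing notes, and their annotation is not given in the sources used here. Sequencing depth is unknown, because FPKM keep no counts. The table listed 19763 transcripts, each with a mean of at least 0.5 FPKM in one group, so transcripts low in both groups are not analysed here. Of these, 19702 matched GENCODE M21 without the version, and FPKM were summed per gene.

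Groups were compared in R 4.3.3 with limma 3.58.1 (eBayes with a mean-variance trend, 2-sided) on log2(FPKM + 1), which understates changes of low genes. Genes averaging at least 0.5 FPKM (12006) were tested, with Benjamini-Hochberg adjustment over all of them and a threshold of 0.05. Single values also had a 2-sided exact permutation test of mean log2 values (scipy 1.17.1). The procedure was tested on simulated data with normal scatter on the log2 scale. These held no failed estimates and no outlying libraries, so the test does not cover such values.

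All members, every other listed Klf or Sp gene and at most 4 genes of each list, by smallest unadjusted p, are named. Pecam1 and the other endothelial markers, Muc2, Fcgbp, Cdkn1a, Cdkn1b, Ccnd1 and the genes listed at 0 were added after their values were seen. Some genes that this rule takes are left out of the text. The members and lists were chosen with earlier results of these data known, so list counts beside the shares of all genes are not independent tests. Alternatives were median-ratio and quantile scaling, added constants of 0.1 and 0.5 FPKM, all genes unfiltered, only genes averaging at least 5 FPKM, limma without a trend and with array weights, the most abundant transcript per gene, and leaving out each library. Promoters came from RefSeq (GRCm38.p6) and finger sequences from GENCODE coding sequences.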

Additional observations from a re-analysis of the deposited data

How the results depend on the processing

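Of 147 values of the members under 15 alternatives, 145 kept their direction and their side of the adjusted threshold, and 2 reversed, Klf3 to 0.10 without I/R replicate 9 and Klf10 to 0.0073 without I/R replicate 7. With single libraries left out, Klf3 ranged from -1.16 to 0.10 and Klf10 from -0.95 to 0.0073. The number of members past the adjusted limma threshold was 0 in each direction under all 15, with a lowest adjusted p of 0.237 (Klf2 without sham replicate 1). At the unadjusted threshold the number of higher members, 0 with all libraries, ran from 0 to 1 with single libraries left out, and the number of lower members was 0 throughout. It was 1 without sham replicate 1 (Klf2) and 1 without I/R replicate 6 (Klf9), and the cause was not tested. With a minimum mean of 5 FPKM, Klf7, Klf9 and Klf15 were not tested.

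No paired analysis was possible because the replicate numbers of the I/R libraries (6, 7 and 9) and the sham libraries (1, 3 and 5) share none. With 3 libraries a group, changes inside the printed intervals cannot be told from none, and a missed threshold does not show that a gene stayed equal. Read depth is unknown, so the precision of low values such as those of Klf9 and Klf15 could not be given.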
